A study of Rattus norvegicus with 72 samples.

Results

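Whole left kidneys collected 72 h after right nephrectomy were set against whole left kidneys collected 48 h after the same operation, across all genes. The comparison uses 8 of the 72 libraries of the study, 4 of nephrectomy 72 h and 4 of nephrectomy 48 h, chosen by their tissue, surgery and time labels. The animals were adult male Sprague-Dawley rats, an outbred strain, fed normal chow. Surgery was under general anesthesia, and the right kidney had been removed after its artery, vein and ureter were tied off, so that the sequenced left kidney was the only one remaining. The 8 whole kidney libraries of sham-operated rats, which kept both kidneys, 4 of sham 72 h and 4 of sham 48 h, after dissection of the right renal pedicle alone, entered the same fit. The other libraries of the study are of microdissected glomeruli, of microdissected S1 proximal tubules and of whole kidneys collected at 24 h. The 24 h whole kidney libraries were in no contrast. Earlier results of these data had shown 4 of them to stand apart, and the 24 h libraries were left out of the fit. Nothing in the labels states that each library is from its own rat, and the p-values measure only library-to-library spread, which may be technical. The sources used here do not give the hour of the day at which kidneys were collected, and the time since surgery and the hour of collection cannot be told apart.

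After loss of a kidney the remaining one enlarges, mostly through growth of its tubule cells and to a smaller part through their division. The kidney also carries a circadian clock. In it, BMAL1, encoded by Arntl, pairs with CLOCK or NPAS2 and drives the period and cryptochrome genes, whose products repress that pair, together with the REV-ERB genes and the PAR bZIP factors Dbp, Tef and Hlf. Arntl and the genes that BMAL1 drives peak at opposite phases of the day, and glucocorticoid hormone, itself rhythmic, drives further targets such as Sgk1, Tsc22d3 and Zbtb16.

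Gene counts per library totalled 29941900 to 42966600 in nephrectomy 72 h kidneys and 17217900 to 40706600 in nephrectomy 48 h kidneys, against 31106000 to 41768300 in the sham libraries. The 37 mitochondrial genes took 50.7 to 60.8% of gene counts in nephrectomy 72 h kidneys and 46.5 to 53.4% in nephrectomy 48 h kidneys. Nephrectomy 48 h library 4 had the lowest total and stood apart on the first principal component. Some results, though not all, are given with and without it. The proximal tubule marker Slc34a1, the thick limb marker Umod, the podocyte marker Nphs1 and the collecting duct marker Aqp2 were present in all 8 nephrectomy libraries, the lowest value being 36.4 CPM for Nphs1. CPM is the gene count relative to the library total after scaling by TMM factors.

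Few genes differed between 72 h and 48 h after nephrectomy. Among them Npas2 and Arntl of the clock rose, and Per2, Per3, Tef, Hlf and Cry2 fell. Of 15455 genes tested, 82 (0.531%) passed an adjusted p of 0.05 in edgeR's quasi-likelihood test with Benjamini-Hochberg adjustment, 50 of them (0.324%) higher and 32 (0.207%) lower at 72 h. The log2 fold changes of the higher genes ran from 0.39 to 2.87 and those of the lower genes from -0.52 to -1.71, and 25 of the 82 were at least 1 in size. On the authors' FPKM values, tested with limma as log2(FPKM + 1), 4 genes were called higher and 15 lower, with a median of -0.13 for all genes. At an unadjusted p under 0.05 there were 1804 genes, and the median log2 fold change of all genes was -0.01. In each called gene the nephrectomy 72 h libraries lay all above or all below the nephrectomy 48 h libraries, as they did in 643 (4.16%) and 675 (4.37%) of all genes tested. In sham kidneys the same times differed in 42 genes (0.272%), 19 higher and 23 lower at 72 h. Of the 82 genes, 9 were also called in sham kidneys, and 38 had the same sign and 4 the opposite sign there at an unadjusted p under 0.05, which 14.2% of all genes passed in either direction. The difference between the nephrectomy and the sham time contrast was past the threshold for 9 genes (0.0582%), all with a higher log2 fold change after nephrectomy than in sham.

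The number of calls depended on single libraries. Without nephrectomy 72 h library 1, 2, 3 or 4 there were 9, 14, 9 and 31 calls, and without nephrectomy 48 h library 1, 2, 3 or 4 there were 9, 33, 54 and 105. Leaving out sham 72 h library 2 or 4 gave 53 calls each. Adding the 24 h whole kidney libraries to the fit left 7 calls. The sham count ran from 2 without sham 72 h library 2 to 183 without nephrectomy 48 h library 4, and the count for the difference from 5 without nephrectomy 72 h library 4 to 31 without sham 48 h library 2. Of the 43 called genes named here, 7 were called without each of the 8 nephrectomy libraries, namely Npas2, Per2, Per3, Tcf21, Apln, Ipmk and Osbpl8. The other 36 lost the call without at least 1 of them, always with the same sign, and 2 of these, Polr2a and Thra, lost it whichever nephrectomy library was left out.

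**Figure D1:**
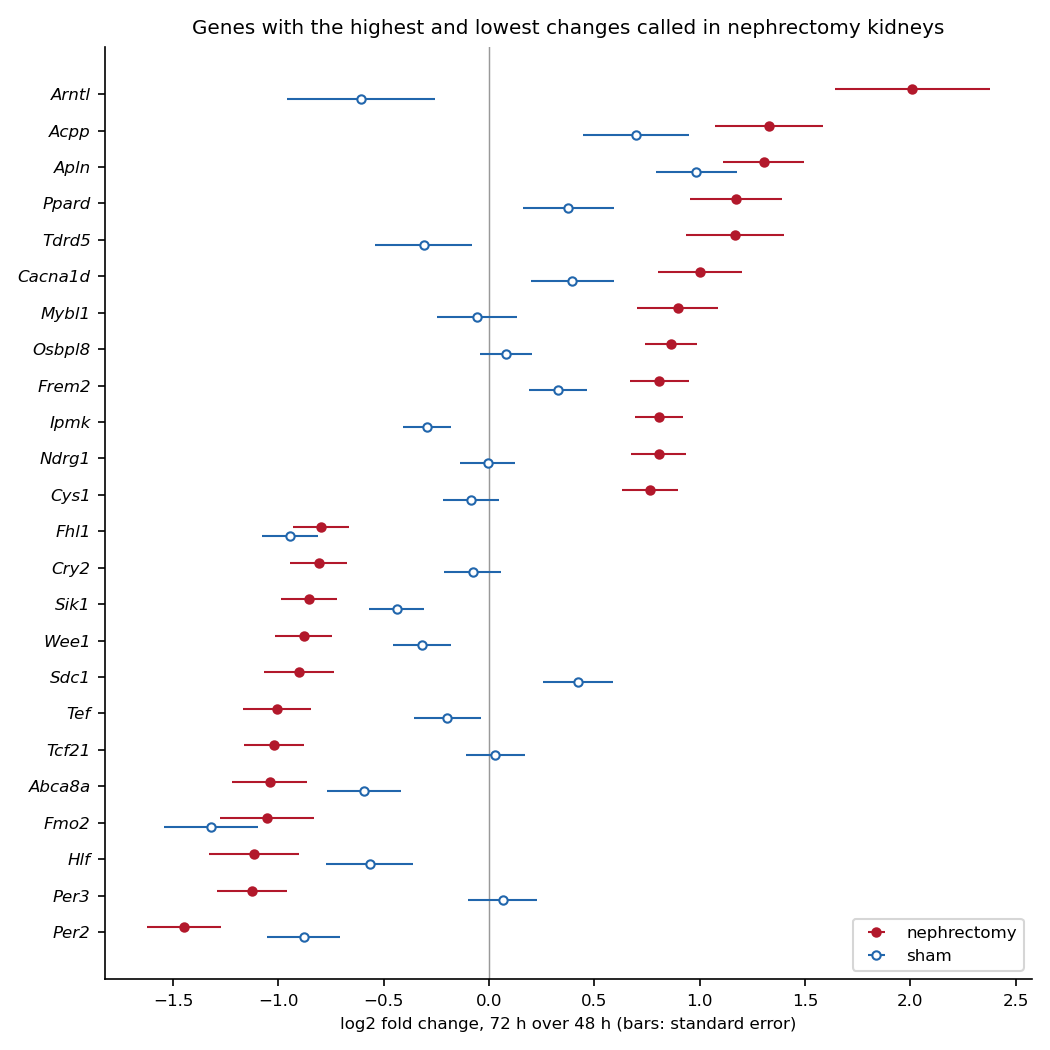
Log2 fold change of 72 h over 48 h (horizontal axis, bars are standard errors) for the 12 highest and 12 lowest called genes that average 5 CPM or more, in nephrectomy kidneys (filled points) and sham kidneys (open points), 4 libraries per group. Arntl heads the list at 2.01 after nephrectomy and -0.61 in sham, and Per2 closes it at -1.45 and -0.88.

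Called clock genes of the activator arm were higher and those of the repressor and output arm lower. The activator arm list also holds Cry1 and Nfil3, which encode repressors, so its count and median are not of activators alone. Among the 6 measured genes of the activator arm 2 were called higher and none lower, and among the 13 genes of the repressor and output arm 5 were called lower and none higher, against 0.324% higher and 0.207% lower of all genes. The median log2 fold change was 0.52 in the activator arm and -0.81 in the repressor and output arm after nephrectomy, against -0.78 and -0.20 in sham kidneys and -0.01 for all genes after nephrectomy. The sham medians rest on a split sham 48 h group. Its libraries 1 to 4 had mean log2 CPM of 2.52, 3.51, 2.73 and 3.59 in the activator arm. In the repressor and output arm they had 4.65, 3.95, 5.01 and 4.05. The sequences are shown because each holds a motif known to be bound by clock factors: the element bound by REV-ERB factors upstream of Arntl, the D-box bound by DBP, TEF and HLF upstream of Per2, and the E-box bound by BMAL1 upstream of Tef. Each is the 250 bases before the annotated start, 5' to 3', from RefSeq on build GRCr8, with the motif in capitals: Arntl, which RefSeq names Bmal1, at chr1:176766078-176766327, plus strand, Per2 at chr9:99496994-99497243, minus strand, and Tef at chr7:115206577-115206826, plus strand.
Bmal1: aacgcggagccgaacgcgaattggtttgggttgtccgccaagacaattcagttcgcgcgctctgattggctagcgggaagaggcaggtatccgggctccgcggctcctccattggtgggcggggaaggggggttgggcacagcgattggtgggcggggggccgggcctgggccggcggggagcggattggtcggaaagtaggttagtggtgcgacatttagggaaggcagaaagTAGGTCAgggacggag
Per2: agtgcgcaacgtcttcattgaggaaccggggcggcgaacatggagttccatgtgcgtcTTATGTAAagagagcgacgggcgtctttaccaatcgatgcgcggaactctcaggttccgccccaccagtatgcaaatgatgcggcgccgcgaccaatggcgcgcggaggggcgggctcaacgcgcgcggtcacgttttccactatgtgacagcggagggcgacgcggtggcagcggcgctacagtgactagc
Tef: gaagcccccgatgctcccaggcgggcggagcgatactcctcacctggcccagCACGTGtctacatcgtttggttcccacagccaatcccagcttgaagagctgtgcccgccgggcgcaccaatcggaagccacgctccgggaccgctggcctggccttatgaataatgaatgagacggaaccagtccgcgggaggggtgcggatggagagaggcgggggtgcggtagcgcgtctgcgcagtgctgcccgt

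Of the 19 clock genes, 16 had a promoter in the RefSeq table, which covers 250 bases before and 50 after each start. Searched on both strands, CACGTG (E-box) occurred in 5 of these 16 genes (Tef, Nr1d1, Ciart, Bhlhe40 and Bhlhe41) and in 6.42% of all 33469 promoters. TTATGTAA or TTACGTAA (D-box) occurred in Per2 and in 1.01% of all promoters. TAGGTCA or TGGGTCA (REV-ERB element) occurred in Arntl, starting 16 bases before the start site, and in 6.6% of all promoters. Npas2, Clock, Nfil3, Per1, Per3, Nr1d2, Dbp, Cry2 and Usp2 held none of these letters in the window. A match is a description of the sequence and not a measured binding site.

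Npas2, the partner of BMAL1 that can stand in for CLOCK, measured 8.72, 8.45, 7.26 and 6.08 CPM in nephrectomy 72 h kidneys, against 1.06, 1.53, 1.68 and 1.21 CPM in nephrectomy 48 h kidneys. Every 72 h library lay above every 48 h library. The log2 fold change was 2.47 ± 0.27 (SE, adjusted p = 0.00106), against 0.65 (adjusted p = 0.261) in sham kidneys. Arntl measured 27.3, 25.5, 22.2 and 21.5 CPM at 72 h and 4.01, 4.27, 6.28 and 9.66 CPM at 48 h after nephrectomy. The groups were again apart, with 48 h library 4 nearest to the 72 h range, and the log2 fold change was 2.01 ± 0.37 (SE, adjusted p = 0.0271). In sham kidneys Arntl was at -0.61 (adjusted p = 0.452), and the difference between the surgeries of 2.62 did not pass the threshold (adjusted p = 0.0918). Arntl kept its call without 2 of the 8 nephrectomy libraries and reached an adjusted p of up to 0.0934 without the others, with log2 fold changes of 1.85 to 2.30 over all 8.

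Clock itself differed less, with a log2 fold change of 0.27 that did not pass (adjusted p = 0.233). Its nephrectomy 72 h libraries held 70.8 to 84.0 CPM and its nephrectomy 48 h libraries 60.0 to 70.4 CPM, so the groups lay side by side without overlap. Cry1, a cryptochrome that is transcribed in phase with the activator arm, was at -0.90 (adjusted p = 0.259), with 3.22 to 4.75 CPM at 72 h below 5.76 to 11.8 CPM at 48 h. Nfil3, a repressor of D-box genes, was at 0.78 (adjusted p = 0.505). The 2 called genes of the activator arm were thus higher, while Cry1 had lower values that missed the threshold.

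Per2, a period gene that represses BMAL1 and CLOCK, measured 25.4, 30.7, 32.4 and 50.6 CPM in nephrectomy 72 h kidneys and 107, 92.7, 95.9 and 83.3 CPM in nephrectomy 48 h kidneys. All 72 h libraries were below all 48 h libraries, although 72 h library 4 stood above its group. The log2 fold change was -1.45 ± 0.18 (SE, adjusted p = 0.00241), and Per2 was also lower at 72 h in sham kidneys (-0.88, adjusted p = 0.0454). Per3 measured 17.3, 19.0, 21.0 and 19.2 CPM at 72 h, against 46.7, 41.8, 40.5 and 38.3 CPM at 48 h after nephrectomy. Both groups were tight and did not overlap (log2 fold change -1.13 ± 0.17, SE, adjusted p = 0.00819). In sham kidneys Per3 was at 0.06 (adjusted p = 0.894), and the difference between the surgeries was -1.19 (adjusted p = 0.0918).

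Tef and Hlf, PAR bZIP factors that bind the D-box, fell as Per2 and Per3 did. Tef measured 46.0, 55.4, 62.2 and 61.8 CPM in nephrectomy 72 h kidneys and 130, 138, 108 and 77.5 CPM in nephrectomy 48 h kidneys (log2 fold change -1.01 ± 0.16, SE, adjusted p = 0.0155). Hlf measured 4.83, 5.61, 5.42 and 4.39 CPM at 72 h, against 12.2, 10.3, 7.98 and 13.6 CPM at 48 h (-1.12 ± 0.21, SE, adjusted p = 0.0317). Neither gene overlapped between the times, and the spread was wider at 48 h. Dbp, the third member of this family, measured 18.5 to 27.8 CPM at 72 h and 30.4 to 74.1 CPM at 48 h, but its log2 fold change of -1.31 ± 0.32 missed the threshold (adjusted p = 0.0729). Without nephrectomy 48 h library 4, its lowest at that time, Dbp passed at -1.52 (adjusted p = 0.0296), while Hlf no longer did at -1.01 (adjusted p = 0.0521).

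Cry2, a cryptochrome repressor, measured 17.5, 17.0, 19.6 and 21.3 CPM in nephrectomy 72 h kidneys and 37.0, 30.7, 35.9 and 28.5 CPM in nephrectomy 48 h kidneys. The groups did not overlap, and the log2 fold change was -0.81 ± 0.14 (SE, adjusted p = 0.0181), against -0.08 (adjusted p = 0.842) in sham kidneys. Wee1, which is not in the clock lists, encodes a kinase that restrains entry into mitosis and is a known clock output in mouse liver; it measured 11.7, 10.8, 11.7 and 12.6 CPM at 72 h and 21.5, 18.8, 18.8 and 27.1 CPM at 48 h (-0.88 ± 0.14, SE, adjusted p = 0.0126). Its groups were apart as well. Cry2 kept its call without 4, and Tef and Wee1 without 5, of the 8 nephrectomy libraries.

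Other members of the repressor and output arm were not called. Per1, a period gene that glucocorticoids also induce, was at 1.04 ± 0.33 (SE, adjusted p = 0.179) with 46.2 to 74.3 CPM at 72 h and 18.0 to 48.3 CPM at 48 h after nephrectomy. Nr1d1, which encodes the repressor REV-ERB alpha, measured 13.9, 18.0, 16.4 and 14.3 CPM at 72 h, against 22.4, 16.1, 12.9 and 7.34 CPM at 48 h (0.08, adjusted p = 0.979). Its 48 h libraries spanned the whole 72 h range. Nr1d2, Bhlhe40, Bhlhe41, Ciart and Usp2, further repressors and outputs, had log2 fold changes of -0.50, -0.54, -0.39, -1.95 and -0.19, and none passed. Sham 48 h libraries differed among themselves in these genes: Nr1d1 measured 41.2, 37.6, 34.4 and 19.2 CPM in sham 72 h libraries and 23.1, 2.17, 25.9 and 3.54 CPM in sham 48 h libraries 1 to 4. Libraries 2 and 4 of sham 48 h were low in Nr1d1 and in Dbp and high in Arntl.

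**Figure D2:**
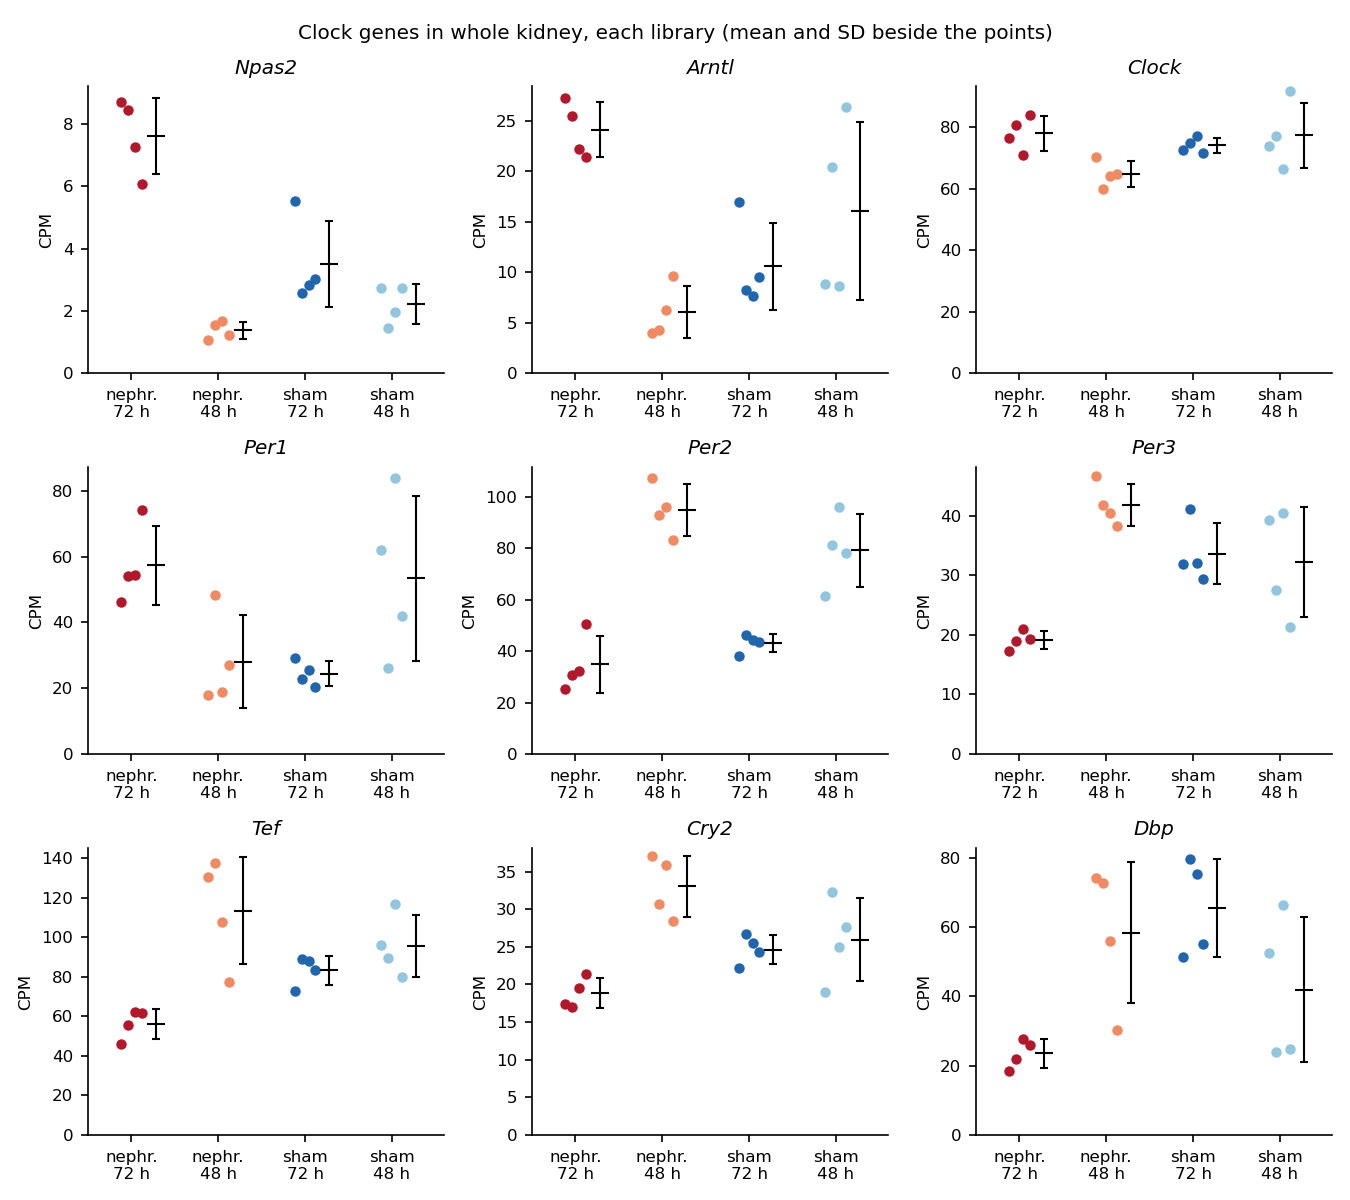
Level of 9 clock genes (CPM, vertical axes starting at 0) in each whole kidney library, with group mean and SD beside the points, for nephrectomy 72 h, nephrectomy 48 h, sham 72 h and sham 48 h (4 libraries each). Npas2 and Arntl lie higher, and Per2, Per3, Tef and Cry2 lower, in all nephrectomy 72 h libraries than in any nephrectomy 48 h library.

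The dissected segments of the study gave further libraries of the same surgeries and times, here as values with no test and on a scale of their own for each tissue. They were made with another amplification kit and read single-end, while whole kidney libraries were stranded and read paired-end, per the labels' protocols. In glomeruli, Per2 measured 39.2, 37.8, 37.1 and 50.6 CPM at 72 h and 175, 145, 172 and 146 CPM at 48 h after nephrectomy. In S1 tubules it measured 22.6, 20.03, 19.1 and 43.3 CPM at 72 h and 79.3, 70.8, 88.9 and 65.0 CPM at 48 h. The times did not overlap in either segment. Per2 was also lower without overlap in sham segments. In sham glomeruli it measured 59.0 to 87.4 CPM at 72 h and 103 to 140 CPM at 48 h. In sham S1 tubules it measured 34.3 to 49.6 CPM at 72 h and 50.0 to 80.0 CPM at 48 h. Npas2 measured 10.2, 21.8, 6.87 and 8.29 CPM at 72 h and 2.51, 1.36, 0.448 and 1.89 CPM at 48 h in glomeruli, and 24.6, 6.96, 11.9 and 11.04 CPM at 72 h and 1.55, 1.75, 5.81 and 1.56 CPM at 48 h in S1 tubules. Per3 in S1 tubules measured 4.96 to 7.97 CPM at 72 h and 19.8 to 22.8 CPM at 48 h after nephrectomy. Arntl overlapped in glomeruli, with 7.47 to 31.9 CPM at 72 h and 5.597 to 12.3 CPM at 48 h, and was higher without overlap in S1 tubules, with 4.48 to 12.1 CPM at 72 h and 0.905 to 3.82 CPM at 48 h. Tef was lower without overlap in both, with 11.7 to 46.2 CPM at 72 h and 73.8 to 152 CPM at 48 h in glomeruli and 2.84 to 24.6 CPM at 72 h and 39.6 to 56.0 CPM at 48 h in S1 tubules. Cry2, Dbp and Nr1d1 overlapped between the times in both segments after nephrectomy. In sham, Npas2, Per3, Arntl and Tef overlapped in both segments. Whether these libraries and the whole kidney ones share rats is not stated in the labels. In sham 48 h S1 tubules Arntl measured 2.48, 12.2, 1.82 and 10.6 CPM in libraries 1 to 4, high in libraries 2 and 4 as in whole kidney.

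Outside the clock lists, the highest called genes had varied roles. Acpp, prostatic acid phosphatase, measured 15.2, 17.9, 13.9 and 14.3 CPM in nephrectomy 72 h kidneys and 4.84, 5.08, 7.51 and 6.96 CPM in nephrectomy 48 h kidneys (log2 fold change 1.33 ± 0.25, SE, adjusted p = 0.0321). Apln, which encodes the vasoactive peptide apelin, measured 7.26, 9.20, 7.76 and 6.83 CPM at 72 h and 2.84, 2.31, 3.49 and 3.95 CPM at 48 h (1.30 ± 0.19, SE, adjusted p = 0.00819). Apln was also higher at 72 h in sham kidneys (0.98, adjusted p = 0.0454). Ppard, a nuclear receptor for fatty acids, measured 23.4, 24.4, 19.6 and 18.0 CPM at 72 h and 8.48, 7.56, 8.97 and 13.1 CPM at 48 h (1.17 ± 0.22, SE, adjusted p = 0.0297). None of these groups overlapped.

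Ipmk, an inositol polyphosphate kinase, measured 165, 177, 198 and 170 CPM in nephrectomy 72 h kidneys and 94.7, 114, 91.4 and 106 CPM in nephrectomy 48 h kidneys (0.81 ± 0.11, SE, adjusted p = 0.00803). In sham kidneys it was at -0.30 (adjusted p = 0.251), and the difference between the surgeries passed at 1.10 ± 0.16 (SE, adjusted p = 0.0118). Osbpl8, a lipid transfer protein of membrane contact sites, measured 165, 182, 164 and 222 CPM at 72 h and 110, 99.1, 109 and 83.8 CPM at 48 h (0.87 ± 0.12, SE, adjusted p = 0.00803). Ndrg1, a stress-responsive gene of the hypoxia list, measured 824, 713, 838 and 720 CPM at 72 h and 413, 420, 495 and 442 CPM at 48 h (0.81 ± 0.13, SE, adjusted p = 0.0163). Its sham log2 fold change was -0.01. Ndrg1 was the only called member of the 9 measured hypoxia genes, whose median was -0.03, where 0.324% of all genes tested were called higher. Egln3, an oxygen-sensing prolyl hydroxylase, was at -0.62 (adjusted p = 0.101).

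The remaining genes of the 12 highest were Tdrd5, Cacna1d, Mybl1, Frem2 and Cys1. Tdrd5, a germline tudor protein, was at 1.17 (adjusted p = 0.037), and Cacna1d, a voltage-gated calcium channel subunit, at 1.00 (adjusted p = 0.0384). Mybl1, a transcription factor of the MYB family, was at 0.90 (adjusted p = 0.0491), and at 0.92 (adjusted p = 0.061) without nephrectomy 48 h library 4. Frem2, an extracellular matrix protein needed for kidney development, was at 0.81 (adjusted p = 0.0181), and Cys1, a ciliary protein whose loss causes cystic kidneys in mice, was at 0.76 (adjusted p = 0.0203). Frem2 held 51.9 to 62.4 CPM in nephrectomy 72 h kidneys and 28.6 to 33.4 CPM in nephrectomy 48 h kidneys. Cys1 held 32.6 to 46.5 CPM at 72 h and 21.9 to 24.9 CPM at 48 h, again without overlap.

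At the low end, Tcf21, a transcription factor of podocytes and stromal cells, measured 8.96, 12.4, 10.3 and 8.84 CPM in nephrectomy 72 h kidneys and 21.9, 24.1, 18.0 and 18.1 CPM in nephrectomy 48 h kidneys. The groups were apart, and the log2 fold change was -1.02 ± 0.14 (SE, adjusted p = 0.00803), against 0.03 in sham kidneys (difference -1.05, adjusted p = 0.0918). Sik1, a salt-inducible kinase, measured 23.6, 25.1, 24.3 and 29.1 CPM at 72 h and 45.1, 50.5, 42.0 and 47.1 CPM at 48 h (-0.86 ± 0.13, SE, adjusted p = 0.0125). Sdc1, the heparan sulfate proteoglycan syndecan 1, measured 7.79, 6.67, 7.60 and 6.78 CPM at 72 h and 13.0, 15.99, 13.3 and 11.6 CPM at 48 h (-0.90 ± 0.16, SE, adjusted p = 0.0271). Sdc1 was at 0.42 in sham kidneys (adjusted p = 0.261), and its difference between the surgeries of -1.32 just missed the threshold (adjusted p = 0.0504).

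Abca8a, a lipid transporter, measured 16.6, 24.0, 21.8 and 20.01 CPM in nephrectomy 72 h kidneys and 51.4, 44.9, 45.1 and 28.2 CPM in nephrectomy 48 h kidneys (-1.04 ± 0.18, SE, adjusted p = 0.0181). Fmo2, a flavin monooxygenase, was at -1.05 (adjusted p = 0.044) with 32.3 to 40.2 CPM at 72 h and 44.4 to 111 CPM at 48 h. Fhl1, a LIM domain protein, was at -0.80 (adjusted p = 0.0174) with 20.5 to 22.9 CPM at 72 h and 29.9 to 47.0 CPM at 48 h. Fmo2 and Fhl1 were called lower at 72 h in sham kidneys too, at -1.32 (adjusted p = 0.0222) and -0.95 (adjusted p = 0.0103). These lower genes therefore differed between 72 h and 48 h after either operation, and their difference between the surgeries did not pass (adjusted p = 0.907 for Fmo2 and 0.911 for Fhl1).

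Further called genes are named here after their values were seen. Slc16a7, a monocarboxylate transporter, measured 167, 155, 156 and 147 CPM in nephrectomy 72 h kidneys and 101, 111, 108 and 71.8 CPM in nephrectomy 48 h kidneys (0.67, adjusted p = 0.0223). The Wnt receptor Fzd4 was at 0.65 (adjusted p = 0.0413), Gpam, which starts glycerolipid synthesis, at 0.60 (adjusted p = 0.0324), the thyroid hormone receptor Thra at 0.48 (adjusted p = 0.0488) and the membrane protease Mmp15 at 0.50 (adjusted p = 0.0413). Adamts4, an aggrecan-cleaving protease, was low in all libraries, with 2.62 to 3.23 CPM at 72 h and 0.521 to 1.44 CPM at 48 h (1.62, adjusted p = 0.0413). Among lower genes, Por, the electron donor of microsomal cytochromes P450, measured 49.6, 44.6, 50.4 and 60.1 CPM at 72 h and 87.0, 77.0, 73.0 and 79.6 CPM at 48 h (-0.63, adjusted p = 0.0181). Slc13a2, the apical citrate transporter of the proximal tubule, was at -0.79 (adjusted p = 0.0491), Gucy1b3, the beta subunit of soluble guanylate cyclase, at -0.77 (adjusted p = 0.0353), the matrix protein Prelp at -0.55 (adjusted p = 0.0248) and the deubiquitinase Uchl1 at -1.64 (adjusted p = 0.0344). Slc13a2 missed the threshold without nephrectomy 48 h library 4 (-0.81, adjusted p = 0.0607).

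Genes called in sham kidneys at 72 h versus 48 h are given here with their nephrectomy values. Of the 5 genes of smallest p that were higher in sham, Pcbp2, an RNA-binding protein, was at 0.40 after nephrectomy (adjusted p = 0.0324) and 0.51 in sham, Ids, a lysosomal sulfatase, at 0.47 (adjusted p = 0.0297) and 0.52, and Polr2a, the largest subunit of RNA polymerase II, at 0.41 (adjusted p = 0.0491) and 0.52. Aoah, which deacylates bacterial lipid, and Lrrc75b were at 0.47 (adjusted p = 0.0577) and 0.43 (adjusted p = 0.117) after nephrectomy. Idi1, an enzyme of isoprenoid synthesis and among the 5 of smallest p that were lower, fell to 13.7 CPM in sham 72 h kidneys, against 26.7 CPM in sham 48 h kidneys, and was at -0.11 (adjusted p = 0.845) after nephrectomy.

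**Figure D3:**
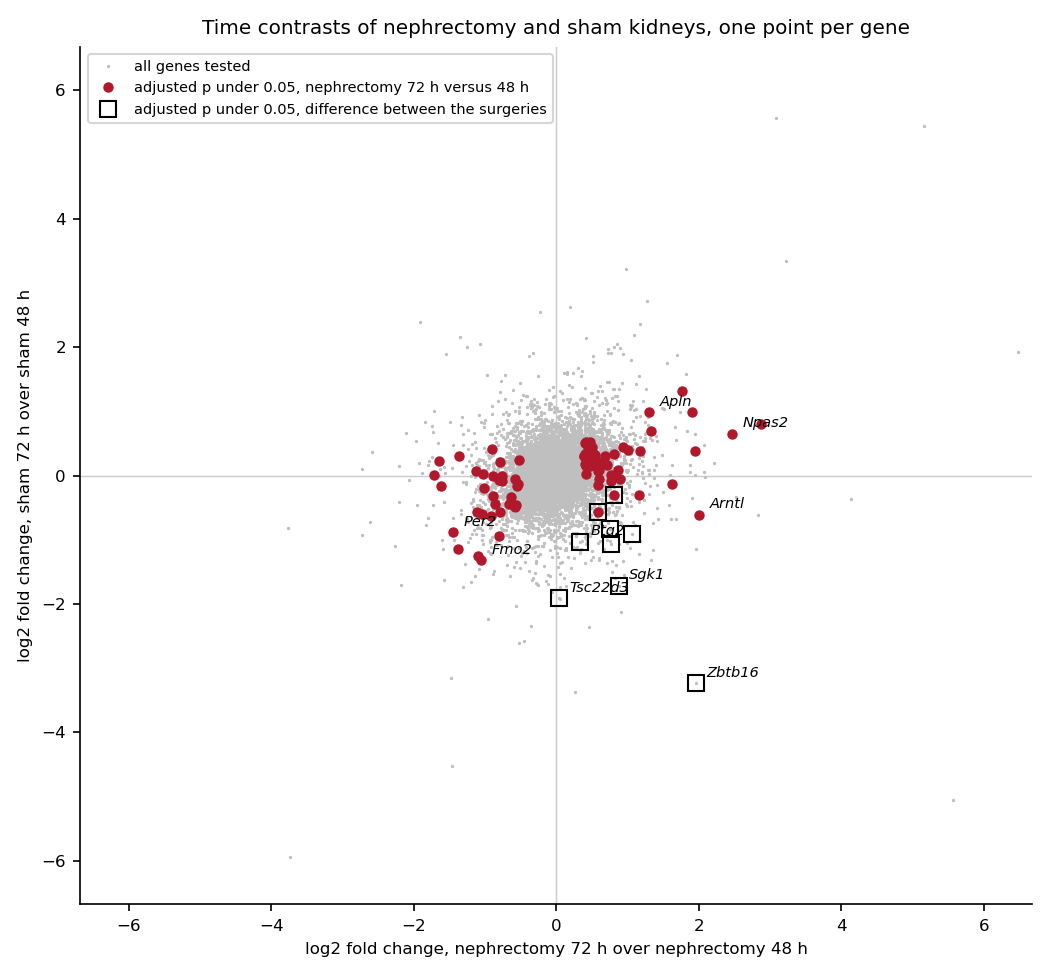
Log2 fold change of nephrectomy 72 h over 48 h (horizontal) and of sham 72 h over 48 h (vertical) for 15455 genes, with the 82 genes called after nephrectomy as filled points and the 9 genes past the test of the difference as open squares. Sgk1, Tsc22d3, Zbtb16 and Btg2 lie at or above 0 on the horizontal axis and below -1 on the vertical one.

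Of the 9 genes past the test of the difference between the surgeries, 3 were in the list of glucocorticoid targets. None of the 17 measured genes of that list was called between 72 h and 48 h after nephrectomy (median log2 fold change 0.13), with 4 higher and 1 lower at an unadjusted p under 0.05, against 5.55% and 6.13% of all genes tested. In sham kidneys 7 of the 17 fell at 72 h (median -0.999), against 0.149% of all genes, and Sgk1, Zbtb16 and Tsc22d3 were among the 7. In the test of the difference, the log2 fold changes of these 3 genes were higher after nephrectomy than in sham. That test compares changes between the times and not levels. Sgk1, a kinase that regulates renal sodium transport, measured 142, 124, 151 and 224 CPM in nephrectomy 72 h kidneys and 72.3, 91.1, 84.0 and 102 CPM in nephrectomy 48 h kidneys. The groups did not overlap, and the log2 fold change of 0.88 ± 0.19 lay just outside the threshold (SE, adjusted p = 0.0502), and inside it without nephrectomy 48 h library 4 (0.96, adjusted p = 0.0484). In sham kidneys Sgk1 measured 81.1, 50.5, 53.2 and 68.3 CPM at 72 h and 258, 166, 202 and 205 CPM at 48 h (-1.71, adjusted p = 0.000943). The difference between the surgeries was 2.59 ± 0.27 (SE, adjusted p = 0.000634).

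Tsc22d3, which encodes the glucocorticoid-induced leucine zipper protein, measured 59.8, 61.5, 68.1 and 115 CPM in nephrectomy 72 h kidneys and 71.4, 98.2, 68.3 and 57.3 CPM in nephrectomy 48 h kidneys under the ID ENSRNOG00000056135. The nephrectomy groups overlapped (0.04, adjusted p = 0.962), and 72 h library 4 was the highest of them. Sham kidneys held 34.9, 30.4, 37.4 and 40.1 CPM at 72 h and 136, 125, 145 and 131 CPM at 48 h (-1.91, adjusted p = 0.000432), and the difference was 1.95 ± 0.27 (SE, adjusted p = 0.0118). A second ID of the same symbol, ENSRNOG00000060899, held 1.88 to 2.61 CPM at 72 h and 2.04 to 3.38 CPM at 48 h after nephrectomy, and reads split between such IDs are uncertain. Zbtb16, a zinc finger factor induced by glucocorticoids, measured 30.4, 19.2, 20.4 and 29.9 CPM at 72 h and 3.06, 15.96, 2.17 and 4.74 CPM at 48 h after nephrectomy. Library 2 of nephrectomy 48 h stood well above the others of its group, and the log2 fold change of 1.96 ± 0.53 did not pass (SE, adjusted p = 0.117). The sham contrast was -3.23 (adjusted p = 0.0249) and the difference 5.20 ± 0.77 (SE, adjusted p = 0.0118).

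Fkbp5, a co-chaperone of the glucocorticoid receptor, followed the sham pattern, with 24.9 to 40.8 CPM in sham 72 h kidneys and 57.6 to 106 CPM in sham 48 h kidneys (-1.41, adjusted p = 0.0179), while its nephrectomy libraries overlapped (-0.17, adjusted p = 0.842). Its difference between the surgeries of 1.24 did not pass (adjusted p = 0.217). Sult1a1, a sulfotransferase, was at -0.88 (adjusted p = 0.121) after nephrectomy, or -1.07 (adjusted p = 0.0347) without 48 h library 4, and at -1.48 (adjusted p = 0.0194) in sham. Ehd3, a trafficking protein of glomerular endothelium, measured 50.6, 43.0, 50.2 and 49.2 CPM in nephrectomy 72 h kidneys and 29.9, 34.2, 30.5 and 33.9 CPM in nephrectomy 48 h kidneys (0.59 ± 0.12, SE, adjusted p = 0.0384), with a difference between the surgeries of 1.16 (adjusted p = 0.0118). Btg2, an antiproliferative p53 target, had a difference of 1.37 (adjusted p = 0.0151), with 17.4 to 24.6 CPM at 72 h and 13.7 to 20.8 CPM at 48 h after nephrectomy. Chst3, a chondroitin sulfotransferase, and Rgcc, a regulator of the cell cycle, named after their values were seen, had differences of 1.84 (adjusted p = 0.0151) and 1.60 (adjusted p = 0.0395).

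Sgk1, Tsc22d3, Zbtb16, Ipmk and Ehd3 passed the test of the difference without any 1 of the 16 libraries. Chst3 lost it without nephrectomy 72 h library 3 or 4 (adjusted p up to 0.0508), Btg2 without 5 libraries (up to 0.0548) and Rgcc without 11 (up to 0.123). In S1 tubules, a separate set of libraries, Sgk1 measured 826, 202, 1295 and 1611 CPM at 72 h and 111, 109, 191 and 188 CPM at 48 h after nephrectomy, and 156, 84.0, 168 and 139 CPM at 72 h and 778, 344, 410 and 293 CPM at 48 h in sham. In glomeruli the times overlapped, with Sgk1 at 346 to 1126 CPM at 72 h and 643 to 796 CPM at 48 h after nephrectomy, and at 582 to 1413 CPM at 72 h and 635 to 929 CPM at 48 h in sham. Tsc22d3 overlapped between the times in both segments after either surgery.

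**Figure D4:**
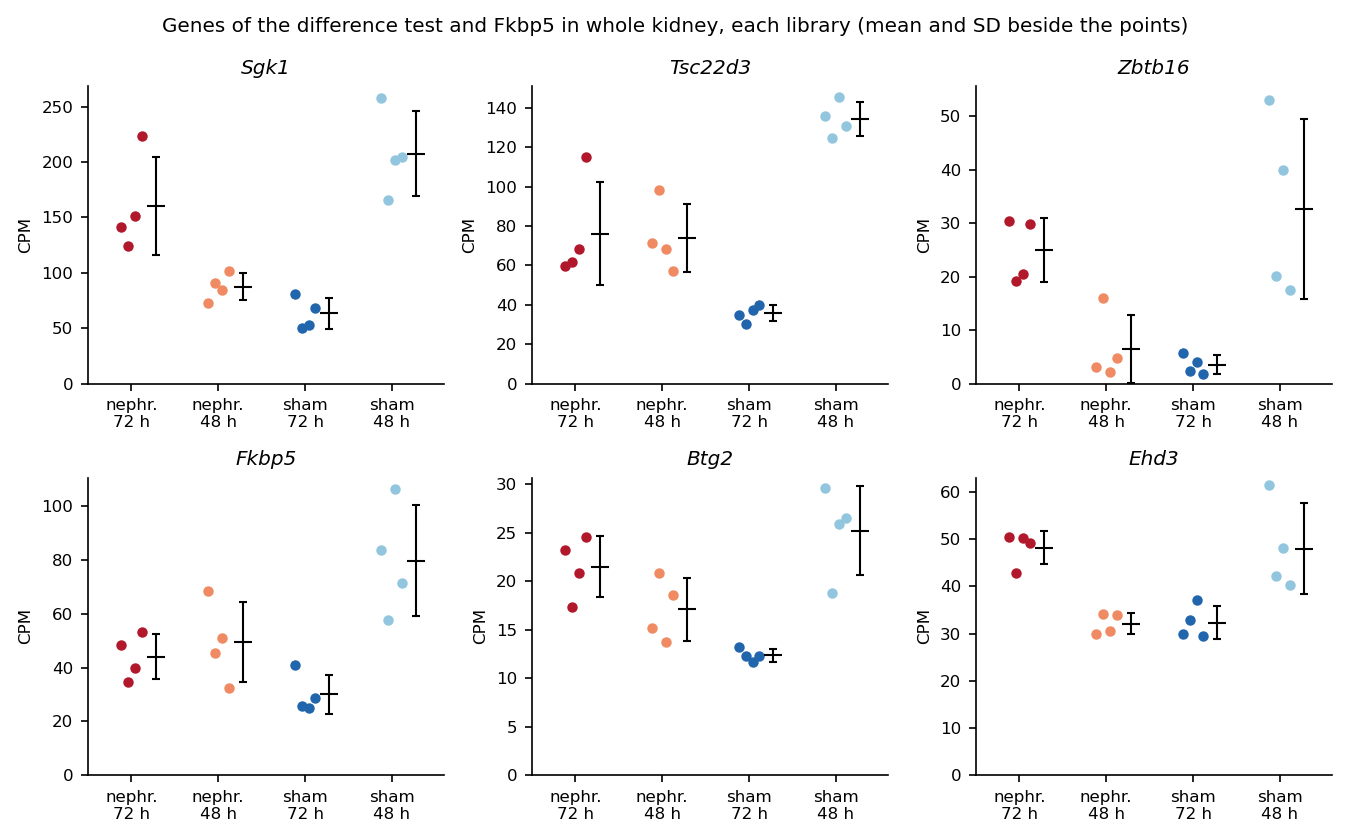
Level (CPM, vertical axes starting at 0) of Sgk1, Tsc22d3 (the more abundant ID), Zbtb16, Fkbp5, Btg2 and Ehd3 in each whole kidney library, with group mean and SD, for nephrectomy 72 h, nephrectomy 48 h, sham 72 h and sham 48 h. Sham 72 h libraries lie below sham 48 h libraries in Sgk1, Tsc22d3 and Fkbp5, while nephrectomy 72 h libraries lie above nephrectomy 48 h libraries in Sgk1, Zbtb16 and Ehd3.

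No gene of the cell division lists was called between 72 h and 48 h after nephrectomy. The sign of the lists' medians turned when nephrectomy 48 h library 4 was left out. None of the 39 DNA replication, 41 mitosis and 41 histone genes passed, and none of the 12 G1 cyclins and CDK inhibitors. The median log2 fold changes were -0.21, -0.28, -0.25 and -0.07, against -0.01 for all genes. Without nephrectomy 48 h library 4 they were 0.20, 0.56, 0.55 and 0.01. Leaving out another single library took the G1 median as high as 0.03. The mean mitosis level, in log2 CPM, was 3.02, 3.06, 3.19 and 3.40 in nephrectomy 72 h libraries and 2.33, 2.05, 3.27 and 4.69 in nephrectomy 48 h libraries 1 to 4. On this log2 scale the group mean was 3.17 at 72 h and 3.09 at 48 h with all libraries kept, although the median log2 fold change was negative. Nephrectomy 48 h library 4 also had the lowest depth and the highest injury gene levels, and the part of either in these values was not tested.

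Mki67, a marker of dividing cells, measured 74.9, 68.0, 76.0 and 89.1 CPM in nephrectomy 72 h kidneys, against 37.7, 27.7, 82.9 and 160 CPM in nephrectomy 48 h kidneys. The 72 h values were close together while the 48 h values spread on both sides of them (log2 fold change 0.00 ± 0.43, SE, adjusted p = 1). Without library 4 the log2 fold change was 0.63 (adjusted p = 0.457). Sham kidneys held 16.3 to 41.0 CPM at 72 h and 17.4 to 45.5 CPM at 48 h, below all nephrectomy 72 h libraries. Top2a, the topoisomerase of mitotic chromosomes, measured 40.6, 42.5, 49.8 and 65.8 CPM at 72 h and 24.8, 18.3, 56.5 and 151 CPM at 48 h after nephrectomy. Plk1, Ube2c, Aurka and Cdk1, which drive mitosis, were at -1.12, -0.83, -0.63 and -0.73, and Dut, Gins2, Prim1 and Tk1 of DNA replication at -0.27, -0.48, -0.47 and -0.47, all short of the threshold. Without 48 h library 4 the mitosis genes were at 0.41, 0.38, 0.20 and 0.40. The DNA replication genes were then at -0.30, -0.17, -0.47 and 0.12, and none of these passed either. Plk1 reached 16.6 CPM and Ube2c 18.4 CPM in 48 h library 4, against 2.79 and 4.23 CPM in the next library of that group. Hist1h3c, a replication-dependent histone, reached 18.7 CPM there, against 2.18 CPM in the next library.

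Cdkn1a, the p21 inhibitor of the cell cycle, measured 7.45, 5.09, 5.58 and 9.29 CPM in nephrectomy 72 h kidneys and 1.38, 2.28, 3.33 and 4.78 CPM in nephrectomy 48 h kidneys. The groups did not overlap, and the log2 fold change of 1.24 ± 0.30 missed the threshold (SE, adjusted p = 0.0678). Without 48 h library 4, the highest of its group, it passed at 1.55 (adjusted p = 0.0261). Cdk6, a G1 kinase, was likewise at 0.52 (adjusted p = 0.0663), and at 0.63 (adjusted p = 0.0183) without that library. Ccnd1, the G1 cyclin D1, was at -0.32 (adjusted p = 0.314) with 109 to 143 CPM at 72 h and 138 to 172 CPM at 48 h. Myc, a growth regulator, was at 0.15 (adjusted p = 0.847), Rb1, the retinoblastoma repressor, at 0.28 (adjusted p = 0.227), and Plk3, a stress-induced kinase, at 0.79 (adjusted p = 0.266).

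**Figure D5:**
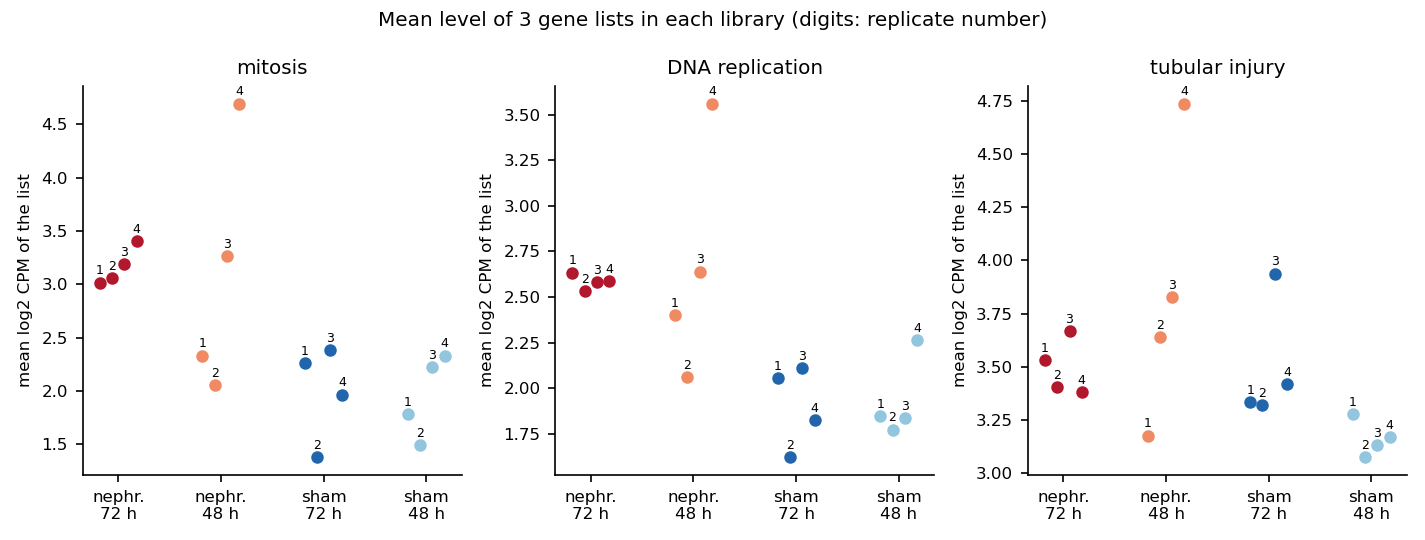
Mean log2 CPM of the mitosis, DNA replication and tubular injury lists in each whole kidney library, with digits for the library number, for nephrectomy 72 h, nephrectomy 48 h, sham 72 h and sham 48 h. Nephrectomy 48 h library 4 is the highest of all 16 in each list, at 4.69, 3.56 and 4.74.

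The tubular injury list had none of 14 measured genes called and a median of -0.51, which was -0.15 without nephrectomy 48 h library 4. Havcr1, which encodes the injury marker KIM-1, measured 3.13, 1.81, 4.17 and 1.38 CPM in nephrectomy 72 h kidneys and 0.452, 4.01, 3.62 and 32.1 CPM in nephrectomy 48 h kidneys. Lcn2, which encodes NGAL, measured 2.15, 1.81, 1.47 and 1.88 CPM at 72 h and 1.35, 1.14, 2.39 and 15.5 CPM at 48 h. Both were high in 48 h library 4 alone, and Clu, a chaperone of injured tubules, reached 177 CPM there and 54.2 CPM in the next library. Krt19, an epithelial keratin, showed another pattern: it measured 8.14, 8.17, 8.12 and 8.71 CPM at 72 h and 19.3, 17.0, 16.6 and 18.9 CPM at 48 h, and its log2 fold change of -1.11 ± 0.29 did not pass (SE, adjusted p = 0.101). Krt18 was at -0.57 (adjusted p = 0.111), and Sox9, a factor of regenerating tubules, at 1.16 (adjusted p = 0.135). Without library 4, Sox9 passed at 1.49 (adjusted p = 0.0487).

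Among the listed genes of tubule segments 1 was called. Slc13a2 of the proximal tubule, called lower as above, is not in these lists. Of 35 proximal tubule transport genes 1 was called, higher, against 0.324% higher and 0.207% lower of all genes tested. The median was -0.18, against -0.01 for all genes. Slc17a3, an organic anion and urate transporter, measured 175, 193, 194 and 182 CPM in nephrectomy 72 h kidneys and 124, 131, 126 and 82.3 CPM in nephrectomy 48 h kidneys (0.68 ± 0.14, SE, adjusted p = 0.0413). Slc17a1, a phosphate and urate transporter, was at 0.68 (adjusted p = 0.0577), with 42.3 to 52.0 CPM at 72 h and 26.7 to 36.3 CPM at 48 h. The phosphate transporter Slc34a3, the amino acid transporter Slc7a7, the glucose transporter Slc5a2 and the sulfate transporter Slc13a1 were at -0.75, -0.76, -0.62 and -0.41, and the main phosphate transporter Slc34a1 was at -0.12, none past the threshold. In whole kidney RNA, fewer cells of a type and less RNA per cell cannot be told apart.

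Other segment lists had no called gene. The 18 thick limb and distal convoluted tubule genes had a median of 0.16, with 5 higher and 1 lower at an unadjusted p under 0.05 (5.55% and 6.13% of all genes tested). Slc12a3, the thiazide-sensitive cotransporter, measured 414, 433, 467 and 402 CPM in nephrectomy 72 h kidneys and 164, 315, 266 and 323 CPM in nephrectomy 48 h kidneys (0.69, adjusted p = 0.232). Egf, a growth factor made in the distal nephron, held 180 to 189 CPM at 72 h and 110 to 159 CPM at 48 h (0.35, adjusted p = 0.214), Casr, the calcium-sensing receptor, was at 0.61 (adjusted p = 0.259), and Nos1, of the macula densa, at 0.53 (adjusted p = 0.246). Umod was at 0.20 (adjusted p = 0.585). The 18 collecting duct genes had a median of 0.04, with Aqp2, the vasopressin-regulated water channel, at 0.00 (adjusted p = 0.999) and Foxi1, the intercalated cell factor, at 0.49 (adjusted p = 0.157). Of the 6 late proximal genes, Slc7a12, an amino acid transporter, was at 0.98 (adjusted p = 0.269) and Slc5a1, a glucose transporter, at 0.32 (adjusted p = 0.358). Nfat5, the tonicity-responsive factor, was at 0.65 (adjusted p = 0.0894) among 9 medullary genes with a median of 0.12.

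The podocyte list gave 1 lower call and the endothelial list 1 higher call, where 0.531% of all genes tested were called. The mesangial and smooth muscle list gave none. Of 12 podocyte genes Tcf21 fell, as above, while the median was 0.19 and Clic5 and Plce1, which support the podocyte foot processes, were at 0.54 (adjusted p = 0.0577) and 0.40 (adjusted p = 0.0909). Clic5 measured 65.1, 80.6, 74.9 and 76.8 CPM in nephrectomy 72 h kidneys and 47.8, 54.6, 58.6 and 42.7 CPM in nephrectomy 48 h kidneys, without overlap. Nphs1, nephrin, was at 0.08 (adjusted p = 0.899). Of 14 endothelial genes only Ehd3 was called, and Cdh5, the endothelial cadherin, was at 0.26 (adjusted p = 0.416). The 39 extracellular matrix genes had no call and a median of -0.03: Col4a4, of the glomerular basement membrane, was at 0.44 (adjusted p = 0.0921), Ctgf at 1.17 (adjusted p = 0.164), Lox, which cross-links collagen, at -0.64 (adjusted p = 0.162) and Thbs1, thrombospondin 1, at -0.39 (adjusted p = 0.151).

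Markers of other cells that a kidney sample can hold did not pass. The 19 immune cell genes had a median of -0.22, which was -0.02 without nephrectomy 48 h library 4, and a summed level of 313 to 438 CPM in nephrectomy 72 h kidneys and 355 to 493 CPM in nephrectomy 48 h kidneys. The macrophage genes C1qb, Lyz2 and Laptm5 were at -0.60, -0.56 and -0.35. The 7 adipocyte genes summed to 50.9 to 127 CPM at 72 h and 58.9 to 81.7 CPM at 48 h, with Plin1, a lipid droplet protein, at 12.4 CPM in 72 h library 1 and 0.812 to 3.93 CPM in the other nephrectomy libraries. The 4 adrenal cortex genes summed to 1.28 to 1.91 CPM at 72 h and 0.944 to 3.77 CPM at 48 h, with the steroid hydroxylase Cyp17a1 at most 0.279 CPM. The 3 red blood cell genes summed to 6.95 to 29.6 CPM at 72 h and 1.498 to 12.6 CPM at 48 h, and Hbb, a beta globin, was at 1.18 (adjusted p = 0.426).

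No metabolic list had a called gene. The 26 cholesterol synthesis genes had a median of 0.01 and no call, with Cyp51, a sterol demethylase, at 0.08, the regulator Insig1 at 0.05 and Dhcr7, the last step of the pathway, at 0.59 (adjusted p = 0.0737). Scd1, a fatty acid desaturase, measured 7.79, 6.05, 2.25 and 2.06 CPM in nephrectomy 72 h kidneys and 116, 118, 1.45 and 4.41 CPM in nephrectomy 48 h kidneys. Libraries 1 and 2 of 48 h thus stood far above libraries 3 and 4, and the log2 fold change of -3.74 ± 1.33 did not pass (SE, adjusted p = 0.247). The mean level of the fatty acid synthesis genes, in log2 CPM, was 4.59, 4.49, 3.95 and 3.97 in nephrectomy 72 h libraries 1 to 4 and 4.86, 4.83, 4.16 and 4.18 in nephrectomy 48 h libraries 1 to 4. Libraries 1 and 2 were above libraries 3 and 4 at both times. Pck1, the gluconeogenic enzyme PEPCK, was likewise high in 48 h libraries 1 and 2, with 314, 383, 495 and 560 CPM at 72 h and 1860, 2202, 621 and 532 CPM at 48 h (-1.57, adjusted p = 0.118, and -1.84 with adjusted p = 0.0488 without 48 h library 4). The 13 gluconeogenesis and fructose genes had a median of -0.22, with 12 below 0, and none was called. Cyp4a8, an omega-hydroxylase of fatty acids, was at 0.45 (adjusted p = 0.119) and Cyp2e1, a cytochrome P450, at -0.38 (adjusted p = 0.715).

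Ribosome and respiratory chain lists each gave at most 1 lower gene, where 0.207% of all genes tested were called lower. Nop56, a core protein of nucleolar ribonucleoproteins, measured 10.9, 10.4, 9.72 and 11.2 CPM in nephrectomy 72 h kidneys and 15.1, 12.9, 14.9 and 20.2 CPM in nephrectomy 48 h kidneys (-0.58 ± 0.12, SE, adjusted p = 0.0491), and was the only call among 28 ribosome biogenesis genes, of which 25 were below 0 with a median of -0.12. Ltv1, a factor of the small subunit, was at -0.36 (adjusted p = 0.21). None of 82 ribosomal protein genes was called (median -0.07), Rpl35 being at -0.60 with an adjusted p of 0.0506. Ndufb7, a subunit of complex I, fell by 0.66 on the log2 scale (adjusted p = 0.044) among 76 nuclear respiratory chain genes with a median of -0.02, and Ndufs7 was at -0.44 (adjusted p = 0.103). Nop56 and Ndufb7 missed the threshold without nephrectomy 48 h library 4 (adjusted p = 0.0661 and 0.0728).

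Growth factor genes were not called. Among 22 of them with a median of 0.02, Igfbp4 and Igfbp3, which bind insulin-like growth factors, were at -1.002 (adjusted p = 0.0619) and -1.07 (adjusted p = 0.209), and Igf1 was at 0.28 (adjusted p = 0.686). The values of Igfbp4 were apart. It measured 28.8, 29.8, 35.6 and 33.5 CPM in nephrectomy 72 h kidneys and 79.9, 61.9, 45.8 and 68.3 CPM in nephrectomy 48 h kidneys. Cyp27b1, which activates vitamin D, was at -1.75 (adjusted p = 0.284). In stress and interferon lists, Ier3, an immediate early gene, was at -0.80 (adjusted p = 0.0695), Asns, of the ATF4 response, at 0.64 (adjusted p = 0.372), Gclc, of glutathione synthesis, at 0.34 (adjusted p = 0.351) and Stat2, an interferon signal transducer, at -0.25 (adjusted p = 0.236). No gene was called among 15 p53 targets (median 0.20), 16 immediate early genes (0.07), 13 fatty acid synthesis genes (-0.10), 27 fatty acid oxidation and PPAR targets (-0.02), 17 glycolysis genes (-0.04), 11 mesangial and smooth muscle genes (-0.19), 24 interferon response genes (-0.09), 21 ATF4 and unfolded protein response genes (0.22), 10 heat shock genes (0.04) and 14 NRF2 targets (0.03). Sdf2l1, an endoplasmic reticulum chaperone, reached 33.8 CPM in nephrectomy 72 h library 4 and 7.91 CPM in the next. The mean level of the ATF4 and unfolded protein response genes, in log2 CPM, was 4.46, 4.26, 4.42 and 5.24 in nephrectomy 72 h libraries and 4.26, 4.51, 4.50 and 4.51 in nephrectomy 48 h libraries. Library 4 of 72 h alone stood above the 48 h range, and without it the median log2 fold change of that list was -0.17.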

How the data were processed

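RNA was sequenced from whole left kidneys with Illumina TruSeq Stranded kits, paired-end, and samples were grouped by the surgery, time and tissue in their labels. The deposited files hold gene counts, which per the submitters' processing notes involve Trimmomatic 0.32, STAR 2.4.0.1, SAMtools and HTSeq. The authors also deposited FPKM values, used here for alternative fits. The sources used here do not give the genome build, the annotation, the use of strand in counting or the other versions. Reads from genes with near-identical copies, overlapping genes or antisense partners are therefore uncertain. Entries of the count tables that name no gene were left out of library sizes and tests. Reads with a unique position that fell in genes made up 73.1 to 77.4% of the uniquely placed reads in the nephrectomy libraries. Alignments without a unique position, left out of the counts, made up 51.5 to 57.5% of unique and non-unique ones together in nephrectomy 72 h libraries. That share was 43.0 to 59.8% in nephrectomy 48 h libraries and 37.9 to 69.5% in sham libraries.

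From the counts, edgeR 4.0.16 (R 4.3.3) fitted 1 mean for each of 4 groups of 4 libraries, nephrectomy and sham at 72 h and 48 h, with TMM scaling, filterByExpr at a minimum count of 10 and the quasi-likelihood test. P-values were adjusted by Benjamini-Hochberg over 15455 genes, with a threshold of 0.05. SEs were derived from each log2 fold change and its F statistic (size over root F). The common biological coefficient of variation was 0.189. No pair of libraries within a group was identical. Alternatives used limma 3.58.1 and DESeq2 1.42.0, and the fit was tested on simulated data.

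The 8 libraries and the gene lists were chosen with earlier results of these data known. Genes named are the 12 highest and 12 lowest log2 fold changes among called genes with a clear symbol and a mean of at least 5 CPM, the 5 of smallest p in each direction for sham and for the difference, where past the threshold, up to 4 of smallest p per list and a fixed set of kidney, clock and growth genes. A further 19 genes, Nfil3, Nr1d2, Ciart, Bhlhe40, Bhlhe41, Usp2 and those marked in the text among them, were chosen after their values were seen. The 38 lists hold 640 symbols, of which 614 were found, besides 3 lists matched by name pattern. Values of a few listed genes were left out and are not reported here.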

Additional observations from a re-analysis of the deposited data

Results flagged for a closer look

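Of 354 groups of 4 values examined, 23 held a library far from the other 3 of its group, and chance gives about 1 in 20 such groups. Nephrectomy 48 h library 4 was that library in 12 of them. In it Havcr1 measured 32.1 CPM (next 4.01), Lcn2 15.5 CPM (next 2.39), Clu 177 (next 54.2), C1qb 12.5 (next 6.42), Ube2c 18.4 (next 4.23), Plk1 16.6, Hist1h3c 18.7 (next 2.18) and Aqp2 228 CPM (next 156). It was the lowest of its group for Slc17a3 at 82.3 CPM and for Egf at 110 CPM. Its mean log2 CPM was 4.42 over G1 cyclins and CDK inhibitors and 3.91 over ribosome biogenesis genes.

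Nephrectomy 72 h library 4 was apart for Sdf2l1 at 33.8 CPM, Cyp51 at 45.0 CPM, Tsc22d3 at 115 CPM and Krt19 at 8.71 CPM, and for the mean log2 CPM of heat shock genes (5.39) and nuclear respiratory chain subunits (5.66). Other nephrectomy 72 h libraries were apart for Egln3 (5.16 CPM, library 3), Fzd4 (156 CPM, library 2) and mesangial and smooth muscle genes (4.50 in log2 CPM, library 1). In nephrectomy 48 h, library 2 was apart for glucocorticoid targets (4.71 in log2 CPM) and library 1 for ATF4 and unfolded protein response genes (4.26 in log2 CPM).

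The change between 72 h and 48 h differed between nephrectomy and sham kidneys for 8 named genes, by edgeR's test of the difference in log2 fold change. The differences were 2.59 for Sgk1, 5.20 for Zbtb16, 1.95 for Tsc22d3, 1.84 for Chst3, 1.60 for Rgcc, 1.37 for Btg2, 1.16 for Ehd3 and 1.10 for Ipmk.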

How the results depend on the processing

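The number of genes called depended strongly on the processing. For nephrectomy 72 h versus 48 h (82 in the report) it was 328 with DESeq2, 385 with voom weights, 7 with the 24 h libraries added, 25 with those numbered 3 and 4 left out again (chosen after seeing the data), 19, 14 and 18 with limma on log2 FPKM at a pseudocount of 1, of 0.1 and with no filter, and 2 with the replicate block. For sham (42) these were 394, 65, 4, 11, 18, 16, 2 and 6, and 23 when fitted without the nephrectomy libraries. For the difference (9) they were 96 with DESeq2, 26 with voom weights, 3 with the 24 h libraries, 2, 2 and 2 with FPKM, 2 with the replicate block and 17 with no filter on low counts. Leaving out 1 library gave 9 to 113, 2 to 183 and 5 to 31 calls. All 82 genes were among the DESeq2 and the voom calls. Upper quartile or RLE scaling, leaving out mitochondrial genes and fitting the 8 nephrectomy libraries alone kept the first count within 1.5 times, the last sharing 44 of the 82 genes. FPKM scaling moved the median of all genes to -0.13 after nephrectomy and 0.14 in sham. No named gene past the threshold changed sign, and only Npas2 and Per2 were called in all 29 other settings. Replicate numbers did not meet the rule for pairing, a correlation over 0.1 in every same-numbered pair: 2 of 4 nephrectomy pairs (0.041 to 0.157) and 3 of 4 sham pairs (-0.115 to 0.138) exceeded it, and not every library correlated best with its own number, so the block result is given only here. After nephrectomy all 8 correlations within numbers 1 and 2 or within 3 and 4 were positive and all 8 across them negative. In sham, 6 of 8 within were positive and 5 of 8 across were negative. These are correlations of deviations from group means, so positive values within make those across negative on balance. The negative values are therefore no separate evidence of structure by number. The labels do not say what the numbers stand for. The causes of these shifts were not tested. Leaving out 1 library turned the sign of the median of 17 of the 38 lists.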

Other observations

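Scd1, a fatty acid desaturase, split the libraries within a group. It measured 4.10, 1.39, 1.37 and 1.60 CPM in sham 72 h kidneys and 435, 53.4, 8.71 and 6.88 CPM in sham 48 h kidneys, so that libraries 1 and 2 were the highest of sham 48 h, as they were of nephrectomy 48 h. Ctgf, a matricellular growth factor, measured 20.1, 26.2, 22.9 and 26.5 CPM in sham 72 h kidneys and 91.4, 25.2, 82.0 and 26.6 CPM in sham 48 h kidneys. Per1 measured 29.1, 22.7, 25.6 and 20.2 CPM in sham 72 h kidneys and 61.9, 26.0, 83.8 and 41.9 CPM in sham 48 h kidneys. In both genes libraries 1 and 3 of sham 48 h were the highest, as they were in Dbp and Nr1d1 at that time.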
